A study of Mus musculus with 2 samples.

Results

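The 9 genes H2-K1, H2-D1, B2m, Tap1, Tap2, Tapbp, Psmb8, Psmb9 and Nlrc5 of the MHC class I antigen presentation pathway were described across single cells of a primed-to-naive reversion experiment in mouse pluripotent stem cells. They were taken as the rows of the raw count table with these symbols, 9 of 33963 genes, and each of the 9 had reads. The table held 17720 cells in 5 tagged populations. The genes were followed in the populations, in the pluripotent clusters and in the other cells of the cultures, macrophage-like cells among them.

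MHC class I molecules show peptides from inside the cell to cytotoxic T cells and are read by natural killer cells. The heavy chains, here the classical H2-K1 and H2-D1, are stable at the surface only with the light chain beta-2 microglobulin, encoded by B2m, and a peptide. Peptides are cut by the proteasome, whose immunoproteasome form carries the catalytic subunits Psmb8 and Psmb9, and are pumped into the endoplasmic reticulum by the transporter Tap1-Tap2. Tapasin, encoded by Tapbp, bridges the transporter and the empty heavy chain. Nlrc5 is a transactivator of class I genes, and interferon gamma is the classical inducer of the whole pathway. Pluripotent mouse stem cells are known for a low class I display.

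The study asked how primed mouse epiblast stem cells (mEpiSCs) return to the naive state when AMP kinase is activated. The labels give strain 129/Ola. The naive population was mouse embryonic stem cells of the line Rex1-GFP, and the primed population was mEpiSCs of the line Oct4GIP, which carry a GFP transgene under Oct4 control and were put on MEF feeder cells with FGF2 and Activin A the day before reversion. The d8 and d16 populations were treated with AICAR, an AMP analogue that activates AMP kinase, together with the cytokine LIF for 8 or 16 days, and d16+10p were cells treated for 16 days and then grown for 10 passages in 2iL, a medium with 2 kinase inhibitors and LIF. Each population was 1 tagged cell suspension from a culture of 1 stem cell line, and suspensions from cultures on feeder cells can hold these too. All 5 were pooled in 1 cDNA library, and no value therefore has a replicate. The naive cells are of another line than the primed and treated cells, so that line and state cannot be told apart in any comparison with the naive core. The methods of the study give 2iL on gelatin for naive stem cells and for expanded reverted cells. Medium and feeder cells therefore cannot be told apart from state either, in primed against naive cells or in d16 against d16+10p cells.

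The naive tag was on 801 cells and the primed tag on 1826, where the labels give 500 collected cells for each. The d8 tag was on 9627 and the d16 tag on 4315 cells (9000 each collected), and 1151 cells (1000 collected) were d16+10p. A cell had 3179 to 111822 reads. More cells thus carried the naive and primed tags than were collected. The tags were used as deposited, and whether some cells carried a wrong tag was not tested. Of 18 clusters built without the antigen presentation genes, 4 had high Pou5f1, the gene of the pluripotency factor Oct4. A core was defined as the cells of a tag in its own Pou5f1-high cluster, which gave a naive core of 512 cells, a primed core of 423 cells and a d16+10p core of 886 cells. The remaining Pou5f1-high cluster was the home of d16 cells. Naive marker Zfp42 was at 692 CPM (reads of a group scaled to 1000000) in the naive core and 28.3 CPM in the primed core, while the primed marker Pou3f1 was at 8.59 and 64.3 CPM. Of the primed-tagged cells 443 lay in a cluster led by Lefty1 and Fgf8 and 237 in a fibroblast-like cluster, so the sums over a whole tag mixed cell kinds. Of the naive-tagged cells 53 lay in the same cluster led by Lefty1 and Fgf8. Since wrong tags were not tested for, like levels of different tags within a cluster are not repeats of a result. The study took the Oct4-negative cells of its primed population to be MEF feeder cells. Which cells of the clusters described here were feeder cells was not tested. The d16 cells were split at 1000 CPM of Dppa5a, a naive marker, into 1278 Dppa5a-high and 3037 Dppa5a-low cells.

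Levels are the summed reads of a group scaled to CPM, with exact Poisson 95% intervals, and differences are log2 ratios of CPM + 1, with exact 95% intervals of the ratio of reads without the added 1. Amplified reads are not independent molecules, so the intervals cover counting error only. A gene counted as tested where 1 of the compared groups reached 10 CPM and both together held 100 reads, and as higher or lower from a 2-fold ratio on, with no p-value since each group was 1 sample.

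Per the GENCODE annotation of GRCm38, 7 of the 9 genes lie on chromosome 17, in the MHC region. H2-K1 spans chr17:33996017-34000347 on the minus strand, H2-D1 chr17:35262730-35267499 on the plus strand and Tapbp chr17:33915899-33929292 on the plus strand. A block of neighbours holds Psmb9 at chr17:34181987-34187764 on the minus strand, Tap1 at chr17:34187553-34197225, Psmb8 at chr17:34197721-34201454 and Tap2 at chr17:34203527-34216321, these last on the plus strand. B2m lies at chr2:122147686-122153083 and Nlrc5 at chr8:94434356-94527272, both on the plus strand.

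The promoters of H2-K1, H2-D1 and B2m are shown because all 3 genes had their highest level in the same cluster of macrophage-like cells, and the stretch between Psmb9 and Tap1 because these neighbours share it while their highest levels lay in different clusters. RefSeq gave promoters for 7 of the 9 genes (GRCm38.p6), and not for Tap2 and Nlrc5. The RefSeq starts are not all those of the GENCODE genes given above. In GENCODE the genes Psmb9 and Tap1 overlap, and the stretch between their RefSeq starts lies inside Psmb9. The windows of H2-D1, Tapbp and Psmb8 likewise lie inside their GENCODE genes. The 250 bases before the RefSeq start of H2-K1 (chr17:34000348-34000597, minus), H2-D1 (chr17:35262844-35263093, plus) and B2m (chr2:122147437-122147686, plus) and the 225 bases between the starts of Psmb9 and Tap1 (chr17:34187331-34187555, plus) follow, each 5′ to 3′ on the strand named. Capitals mark AANNGAAA, the core letters bound by interferon regulatory factors, on either strand.
H2-K1: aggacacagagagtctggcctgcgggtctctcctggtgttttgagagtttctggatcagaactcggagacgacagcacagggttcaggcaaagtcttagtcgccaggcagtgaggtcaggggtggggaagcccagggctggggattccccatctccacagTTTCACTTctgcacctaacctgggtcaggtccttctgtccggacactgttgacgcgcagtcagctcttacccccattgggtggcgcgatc
H2-D1: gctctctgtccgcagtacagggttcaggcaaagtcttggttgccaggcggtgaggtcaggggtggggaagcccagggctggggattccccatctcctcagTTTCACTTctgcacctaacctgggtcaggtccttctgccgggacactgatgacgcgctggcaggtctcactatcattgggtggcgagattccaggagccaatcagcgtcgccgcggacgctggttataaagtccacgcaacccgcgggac
B2m: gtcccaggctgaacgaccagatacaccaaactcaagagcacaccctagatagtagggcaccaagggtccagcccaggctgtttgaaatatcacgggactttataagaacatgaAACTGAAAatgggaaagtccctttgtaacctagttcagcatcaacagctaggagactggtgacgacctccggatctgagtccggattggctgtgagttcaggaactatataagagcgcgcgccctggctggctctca
Tap1 and Psmb9: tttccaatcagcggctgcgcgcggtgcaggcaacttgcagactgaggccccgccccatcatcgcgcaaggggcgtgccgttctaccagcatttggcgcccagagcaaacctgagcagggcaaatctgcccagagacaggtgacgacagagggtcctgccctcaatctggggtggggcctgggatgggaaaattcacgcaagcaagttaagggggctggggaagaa
These letters stood in 3 of the 7 promoters, those of H2-K1, H2-D1 and B2m, and in 21.3% of 32851 RefSeq promoters of this length. In H2-K1 the match ran from -90 to -83, in H2-D1 from -150 to -143 and in B2m from -137 to -130, counted from the start. A longer pattern, GAAA, any 2 bases and GAAA again, the response element of interferon-stimulated genes, was found in B2m alone of the 7, overlapping the shorter match, against 2.98% of all promoters. CCAAT, the box bound by NF-Y, stood in 6 of 7 against 33.8%, and TTCNNNGAA, the letters of a STAT site, in the Psmb8 promoter alone against 7.02%. The CCAAT matches of Tap1 and Psmb9 are the same bases of the stretch they share, counted once for each gene. The H2-K1 and H2-D1 windows could be aligned over 177 bases, 161 of them identical (91.0%), with a longest identical run of 47. Counts over the 7 promoters are therefore not counts of separate sequences. A match of letters is a description of the sequence and not a bound site.

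The likeness of the heavy chains also touched the counts. Of the 31-base words in the H2-K1 transcripts 22.8% occurred in another gene, 11.1% in H2-D1, and of those in H2-D1 26.7% did so, 13.8% in H2-K1. B2m, Psmb9 and Nlrc5 shared none, and the other 4 genes at most 4.62% (Tapbp). The split of reads between H2-K1 and H2-D1 is therefore uncertain. The strain of the feeder cells and of the macrophage-like cells described here is not given in the sources used, and whether another H2 haplotype changed how their reads map was not tested.

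The first comparison set primed against naive cells, which also differ in line and medium, and the peptide-supply genes differed more than the heavy chains. Psmb8, the catalytic immunoproteasome subunit also known as LMP7, was at 6.95 CPM (5.58 to 8.55) in the naive core and 43.8 CPM (39.8 to 48.0) in the primed core, a log2 ratio of 2.49 (2.32 to 3.0). Tap1 was at 5.70 CPM (4.47 to 7.17) and 12.6 CPM (10.5 to 15.0), a log2 ratio of 1.02 (0.72 to 1.58). These 2 genes were the members at least 2-fold higher in primed cells, of 7 tested, where 4.94% of 10182 tested genes were higher and 7.67% lower. The Tap1 ratio was under 2-fold in 3 of 11 alternatives (0.53 to 1.26). Of the other peptide-supply genes, Tap2 and Tapbp lay under the 2-fold limit, and Psmb9, with a log2 ratio of 1.05, was not tested.

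Tap2 had 5.15 CPM in the naive core and 11.1 CPM in the primed core, with a log2 ratio of 0.98 (0.66 to 1.57). Tapbp had 44.0 and 80.7 CPM, with a log2 ratio of 0.86 (0.72 to 1.03). B2m had 143 CPM (137 to 150) and 208 CPM (199.6 to 217.5), with a log2 ratio of 0.54 (0.45 to 0.63). All of these intervals stayed above 0, and those of the heavy chains lay nearer to it or across it. H2-D1 was at 76.3 and 86.1 CPM, a log2 ratio of 0.17 (0.04 to 0.31), and H2-K1 at 29.2 and 25.9 CPM, a log2 ratio of -0.17 (-0.41 to 0.06). Psmb9, the LMP2 subunit, had 21 reads in the naive core and 45 in the primed core (1.64 and 4.47 CPM) and Nlrc5 had 6 and 8 reads (0.47 and 0.79 CPM), too few to be tested. The median of the 9 log2 ratios was 0.86, and that of all tested genes 0.01.

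The second comparison set the d16 cells with the naive marker Dppa5a against the primed core. All 9 genes were below the primed core there, with a median log2 ratio of -0.49 against 0.09 for all tested genes. Psmb8 again stood out, at 10.0 CPM (8.70 to 11.5), a log2 ratio of -2.02 (-2.37 to -1.89), and it was the only member at least 2-fold lower of 7 tested, where 3.63% of tested genes were lower and 9.4% higher. Tap2 was at 5.39 CPM, a log2 ratio of -0.92 (-1.43 to -0.65), and Tapbp at 44.0 CPM, a log2 ratio of -0.86 (-1.01 to -0.74). The naive core, for these genes, had 5.15 and 44.0 CPM. The log2 ratio of H2-K1 was -0.49 (-0.75 to -0.28), that of Tap1 -0.40 (-0.77 to -0.11), that of B2m -0.36 (-0.44 to -0.28) and that of H2-D1 -0.29 (-0.41 to -0.17). This comparison shares the primed core with the first, so that primed counts enter both.

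Within the d16 cells, B2m and H2-K1 went down over rising Dppa5a. B2m was at 410 CPM in the 2675 cells under 250 CPM of Dppa5a, 308 CPM in the 111 cells just under the limit, 227 CPM in the 184 cells just over it and 132 CPM in the 538 cells from 4000 CPM on. Psmb8 was at 24, 34.9, 22.5 and 8.06 CPM in the same cells, so that the cells just inside the limit were nearer to the low ones. Tapbp was at 84.2, 78.5, 56.4 and 38.9 CPM. H2-K1 was at 42.6, 26.2, 24.9 and 15.5 CPM. Of the cells just under the limit 30.6% lay in Pou5f1-high clusters, and of those just over it 79.3%, and the mixture of cell kinds therefore changed along the same axis.

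**Figure D1:**
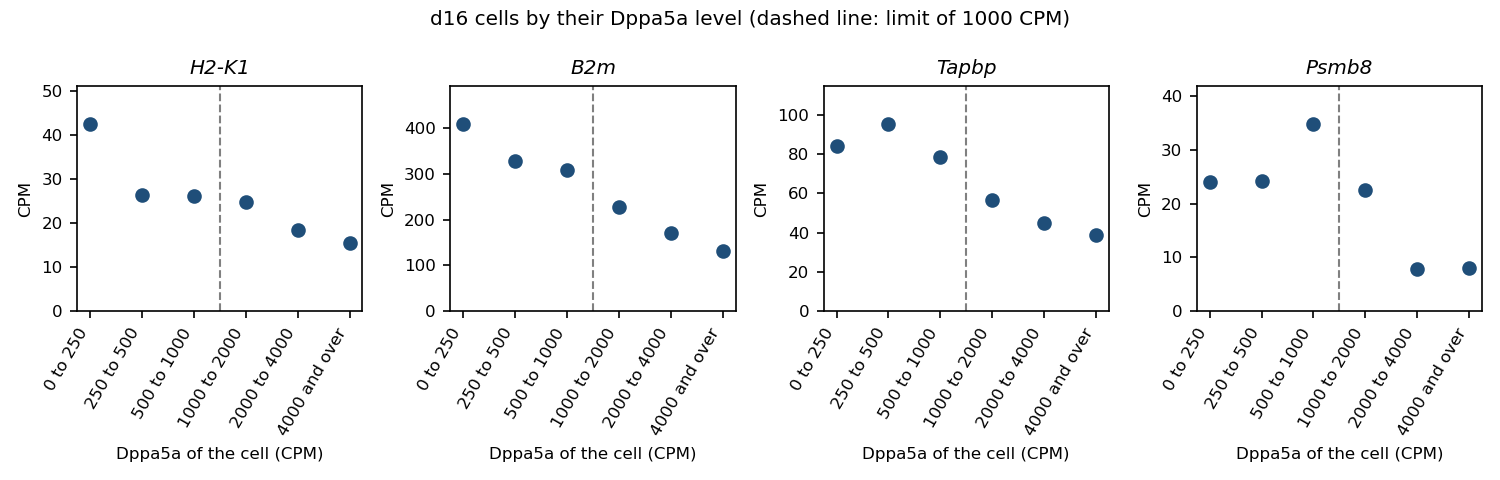
Summed level in CPM (vertical axis, from 0) of H2-K1, B2m, Tapbp and Psmb8 in d16 cells grouped by their own Dppa5a level in CPM (horizontal axis, 6 groups), with a dashed line at the limit of 1000 CPM. B2m went from 410 CPM in the lowest group to 132 CPM in the highest, and Psmb8 from 24 to 8.06 CPM with its highest value, 34.9 CPM, just under the limit.

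Between the Dppa5a-low and Dppa5a-high d16 cells, 3 of 7 tested members were at least 2-fold higher in the low cells, where 16.6% of tested genes were higher and 11.2% lower. B2m had 401 against 163 CPM, a log2 ratio of 1.30 (1.25 to 1.36). Psmb8 had 24.5 against 10.0 CPM, a log2 ratio of 1.21 (1.07 to 1.51), and H2-K1 had 40.9 against 18.1 CPM, a log2 ratio of 1.13 (1.01 to 1.35). The median over the 9 was 0.93, against 0.03 for all tested genes. H2-D1 had 98.5 against 70.5 CPM, a log2 ratio of 0.48, and -0.05 without macrophage-like cells (cluster 8), which gave 24.2% of all d16 reads of H2-D1 from 39 cells. Without them H2-K1 came to 0.87, and it was under 2-fold in 4 of 10 alternatives, as was Psmb8 in 2 of 10.

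The third comparison set the expanded reverted cells beside naive cells of the other line. No member differed 2-fold between the d16+10p core and the naive core, of 4 tested, where 1.09% of tested genes were higher and 1.19% lower. The median log2 ratio was -0.09, against 0.03 for all tested genes. B2m was at 147 and 143 CPM, a log2 ratio of 0.03 (-0.05 to 0.12), Tapbp at 45.2 and 44.0 CPM, 0.04 (-0.11 to 0.19), and Psmb8, under the limit of level, at 6.45 and 6.95 CPM, -0.09 (-0.50 to 0.29). H2-K1 was the tested member with the largest difference, 16.5 CPM (14.9 to 18.3) against 29.2 CPM (26.3 to 32.3), a log2 ratio of -0.79 (-1.03 to -0.61), and Tap1, also under the limit of level, had 8.33 against 5.70 CPM, 0.48 (0.15 to 0.96). H2-D1 had a log2 ratio of -0.22 (-0.34 to -0.10). Between Dppa5a-high d16 cells and the d16+10p core, 0 of 5 tested members differed 2-fold, with 1.75% of tested genes higher and 0.667% lower, and a median of 0.14 against 0.08. The largest ratio among those tested was that of Psmb8, 10.0 against 6.45 CPM, 0.56 (0.32 to 0.95).

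**Figure D2:**
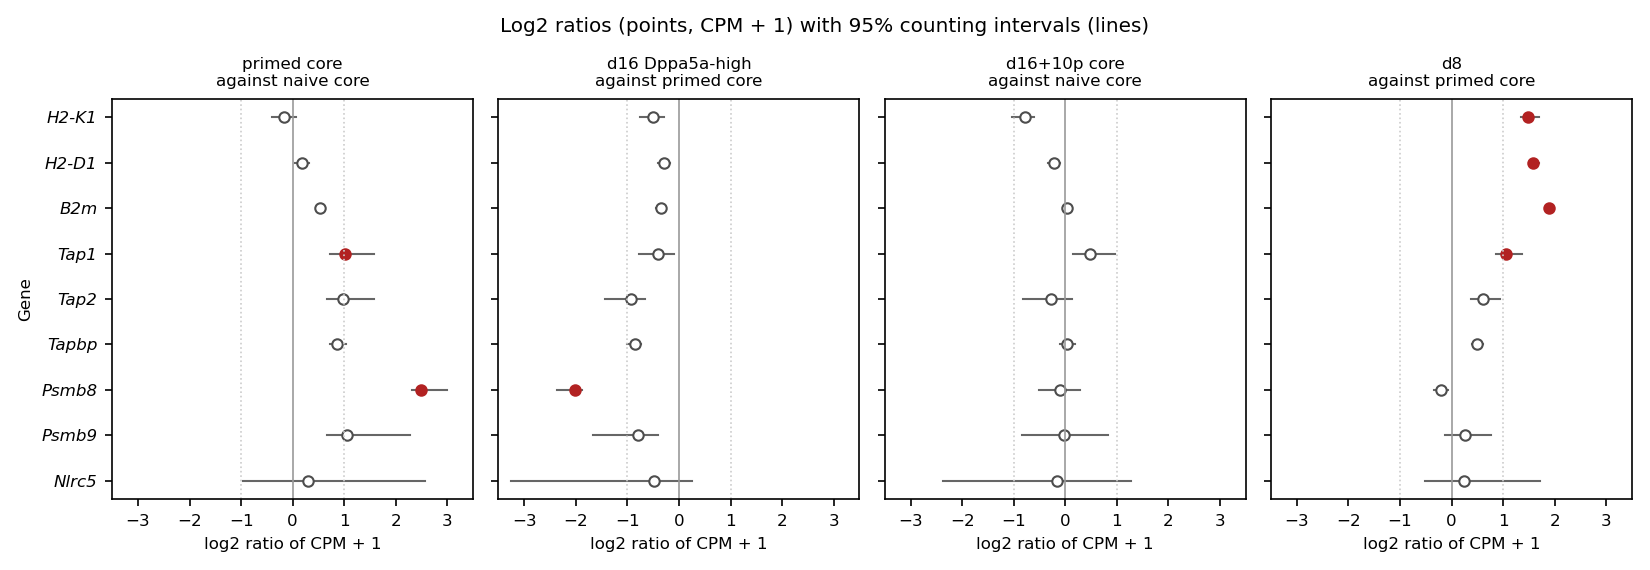
Log2 ratio of CPM + 1 (horizontal axis) of the 9 genes in 4 comparisons, with points for the ratio, lines for the exact 95% counting interval of the reads, dotted lines at a 2-fold ratio and filled points for tested genes past it. Psmb8 stood at 2.49 in primed against naive and at -2.02 in Dppa5a-high d16 against primed cells, and 4 genes were past 2-fold in d8 cells, macrophage-like cells included.

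The d8 cells were compared with the primed core, and over all d8 cells, macrophage-like cells included, the surface molecules led. Without the macrophage-like cells, described below, B2m stayed past 2-fold and the heavy chains did not. Of 7 tested members 4 were at least 2-fold higher in d8, where 14.6% of tested genes were higher and 8.58% lower. B2m was at 776 CPM against 208 CPM, a log2 ratio of 1.89 (1.84 to 1.96). H2-D1 was at 259 against 86.1 CPM, 1.58 (1.49 to 1.69), and H2-K1 at 74.1 against 25.9 CPM, 1.48 (1.34 to 1.70). Tap1 was at 27.2 against 12.6 CPM, 1.05 (0.86 to 1.38). Tap2 had a log2 ratio of 0.61 (0.38 to 0.94) and Tapbp of 0.50 (0.40 to 0.60), whereas Psmb8, at 38.0 against 43.8 CPM, had -0.20 (-0.34 to -0.06). The median was 0.61, against 0.12 for all tested genes.

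Much of the heavy chain signal of d8 lay in few cells. Cluster 8 held 935 cells, 817 of them d8, and all 12 macrophage markers were raised in it, with the lysozyme gene Lyz2 at 26484 CPM and the summed marker list at 29859 CPM, against 273 to 448 CPM in each of the other clusters. These macrophage-like cells were 8.49% of the d8 cells and gave 9.0% of the d8 reads, but 67.0% of the d8 reads of H2-D1, 52.4% of those of H2-K1 and 23% of those of B2m. They gave only 4.45% of the Tap1 reads, and 8.61% for Tap2, 8.67% for Tapbp and 11% for Psmb8. Without cluster 8 the log2 ratio against the primed core was 0.12 for H2-D1 and 0.56 for H2-K1, both under the 2-fold limit, but 1.65 for B2m and 1.12 for Tap1. How these cells came into the cultures is not given in the sources used here.

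**Figure D3:**
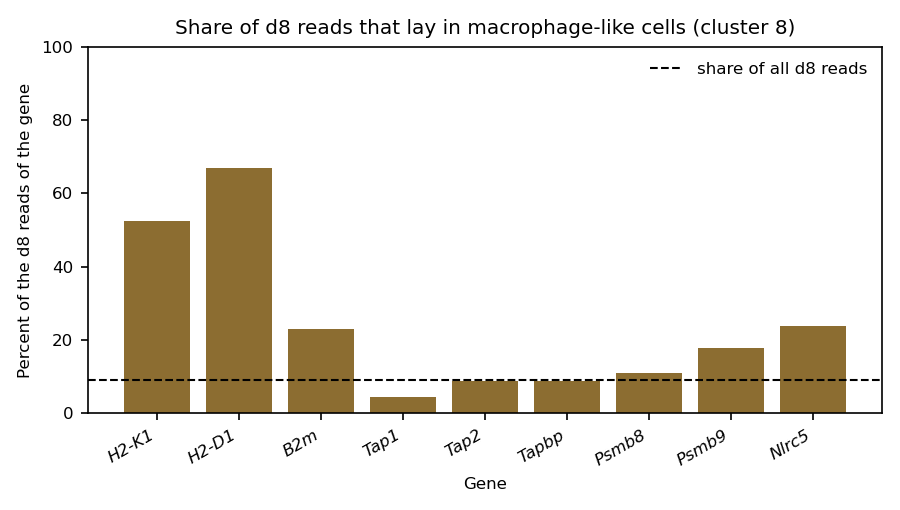
Percent of the d8 reads of each gene (bars, from 0 to 100) that came from the macrophage-like cluster 8, with a dashed line at its 9.0% share of all d8 reads. The bars of H2-D1 (67.0%) and H2-K1 (52.4%) stand far above the line, that of Tap1 (4.45%) lies below it.

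In the macrophage-like cells H2-D1 was at 1849 CPM, 19.7-fold (19.3 to 20.1) the level in the other d8 cells, H2-K1 at 410.3 CPM, 10.6-fold (10.2 to 10.9), and B2m at 1911 CPM, 2.91-fold (2.88 to 2.95). The peptide transporter was not raised there. Tap1 was at 13.2 CPM, 0.461-fold (0.403 to 0.524) the other d8 cells, Tap2 at 15.6 CPM, 0.887-fold (0.783 to 1.00), and Tapbp at 106 CPM, 0.923-fold (0.881 to 0.967). Psmb8 was 1.24-fold (1.15 to 1.33), Psmb9 2.06-fold (1.75 to 2.41) and Nlrc5, with 51 reads, 2.93-fold (2.09 to 4.05). Single macrophage-like cells ranged widely, with H2-D1 at 592 CPM at the 10th percentile, 1783 CPM at the median and 3695 CPM at the 90th. The median cell had 59.4 CPM in the naive core and 66.5 CPM in the primed core. Across the 935 cells, H2-D1 had a Pearson r of 0.38 with H2-K1, 0.37 with B2m and 0.46 with Lyz2 on the log2(CPM + 10) scale, values that share the depth of each cell.

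Outside cluster 8, Lyz2 ran from 177 CPM (cluster 4) to 327 CPM (cluster 17), and none of the 12 markers was at 0 in a core. Lyz2 was even in the cores, at 197 CPM (naive), 199 CPM (primed) and 187 CPM (d16+10p). These Lyz2 levels are 0.745%, 0.752% and 0.704% of its level in cluster 8. Reads that came from those cells at the same ratio would amount to 13.8, 13.9 and 13 CPM of H2-D1 in the 3 cores, 18.1%, 16.1% and 19.9% of its level there. For H2-K1 they would be 10.5%, 11.9% and 17.5%, and for Psmb8 4.93%, 0.791% and 5.03%. For H2-D1 they would be 20.3% in Dppa5a-high d16 cells and 14.8% in d8 cells without cluster 8. Whether such reads were among those of the cores or of these groups was not tested.

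The fibroblast-like cluster 0 (2347 cells, 2170 of them d8), led by Lox and Ccl2, was next for the surface molecules. Of 8 fibroblast markers 5 were raised in it, but so were 3 of 6 smooth muscle markers. The fibroblast marker Col3a1 was at 158 CPM there, below the 299 CPM over all cells. B2m was at 1116 CPM (1106 to 1125), H2-D1 at 155 CPM (152 to 159) and H2-K1 at 79.0 CPM (76.5 to 81.5), each second only to the macrophage-like cells among the 15 clusters of at least 100 cells. Tap1, in contrast, was at 11.1 CPM, 12th of 15, and Psmb9 at 1.91 CPM, 13th of 15. Primed-tagged cells of this cluster had B2m at 989 CPM, d16 cells at 801 CPM and d8 cells at 1134 CPM, so that each of these tags had more B2m here than the next cluster, at 728 CPM, had over all tags. The other fibroblast-like cluster, 6, led by Col3a1 and mostly of d16, had B2m at 511 CPM but H2-D1 at 58.6 CPM, the lowest of the 15. The smooth muscle-like cluster 4 also combined high B2m, 728 CPM (719 to 736), with low H2-D1, 65.0 CPM (62.5 to 67.7).

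Below cluster 0 the levels of H2-D1 lay close together and those of H2-K1 spread more. After the Krt15 cluster 14, at 103 CPM (91.5 to 115), H2-D1 ran from 86.0 CPM in the primed home cluster to 58.6 CPM, and of the neighbours in this order only the epithelial-like cluster 2 (70.9 to 75.9) and the d16+10p home cluster (63.7 to 70.1) had intervals that did not overlap. H2-K1 ran from 46.9 CPM in cluster 14 to 17.2 CPM in the d16+10p home cluster, 7. B2m was the more graded gene, with the home clusters of naive, d16 and d16+10p cells at the bottom, at 161 CPM (d16+10p), 149 CPM (d16) and 143 CPM (naive), below the primed home cluster at 211 CPM and the neural-like clusters 13 and 3 at 240.4 and 272 CPM.

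The transporter genes were highest elsewhere. Tap1 was at 122 CPM (109.7 to 134.8) in cluster 14, a group of 173 cells led by Krt15 of which 152 were d8, and next at 42.1 CPM (39.8 to 44.5) in cluster 1, led by Lefty1 and Fgf8. The epithelial-like cluster 2 had 35.9 CPM and cluster 10 had 35.6 CPM, and these do not differ beyond their intervals. Tap1 was lowest in the naive home cluster, at 6.06 CPM (4.80 to 7.54). In cluster 1 it was at 43.9 CPM in d8-tagged, 39.4 CPM in primed-tagged and 41.6 CPM in naive-tagged cells, against 12.6 CPM in the primed core, so that the 24.5 CPM over the whole primed tag was a mixture. Tap2 ranged from 4.45 CPM in the d16 home cluster to 27.0 CPM in cluster 10, and Tapbp from 42.6 to 169 CPM in the same clusters.

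Cluster 10, led by T and Shh (738 cells, 608 of them d8), was the highest for both immunoproteasome genes. Psmb8 was at 154 CPM (147 to 162) there, followed by 49.9 CPM (47.9 to 52.0) in the epithelial-like cluster 2, and Psmb9 at 18.6 CPM (16.1 to 21.4), followed by 10.3 CPM in the macrophage-like cells. In that cluster Psmb8 was at 156 CPM in d8-tagged and 147 CPM in primed-tagged cells. At equal depth of 5000 reads a cell, 44.5% (40.7 to 48.2) of its 695 deep enough cells had a Psmb8 read, against 17.4% (13.9 to 21.4) of 413 cells of the primed core and 3.75% (2.28 to 5.80) of 506 cells of the naive core. At full depth these shares were 62.5%, 35.0% and 13.1%. H2-D1 in cluster 10 was at 78.1 CPM, 6th of 15.

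Nlrc5, the transactivator, had only 256 reads in the 17720 cells. It was highest in cluster 14, at 13.3 CPM (9.58 to 18.1) from 41 reads, where Tap1 was also highest, and next in the macrophage-like cells, at 2.74 CPM (2.04 to 3.60), where Tap1 was low. In the other 13 clusters of this size it lay between 0.20 and 0.98 CPM. Its read was seen at equal depth in 0.198% (0.005 to 1.1) of naive core and 0.242% (0.00613 to 1.34) of primed core cells, so that a difference between them was not detectable at this depth.

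**Figure D4:**
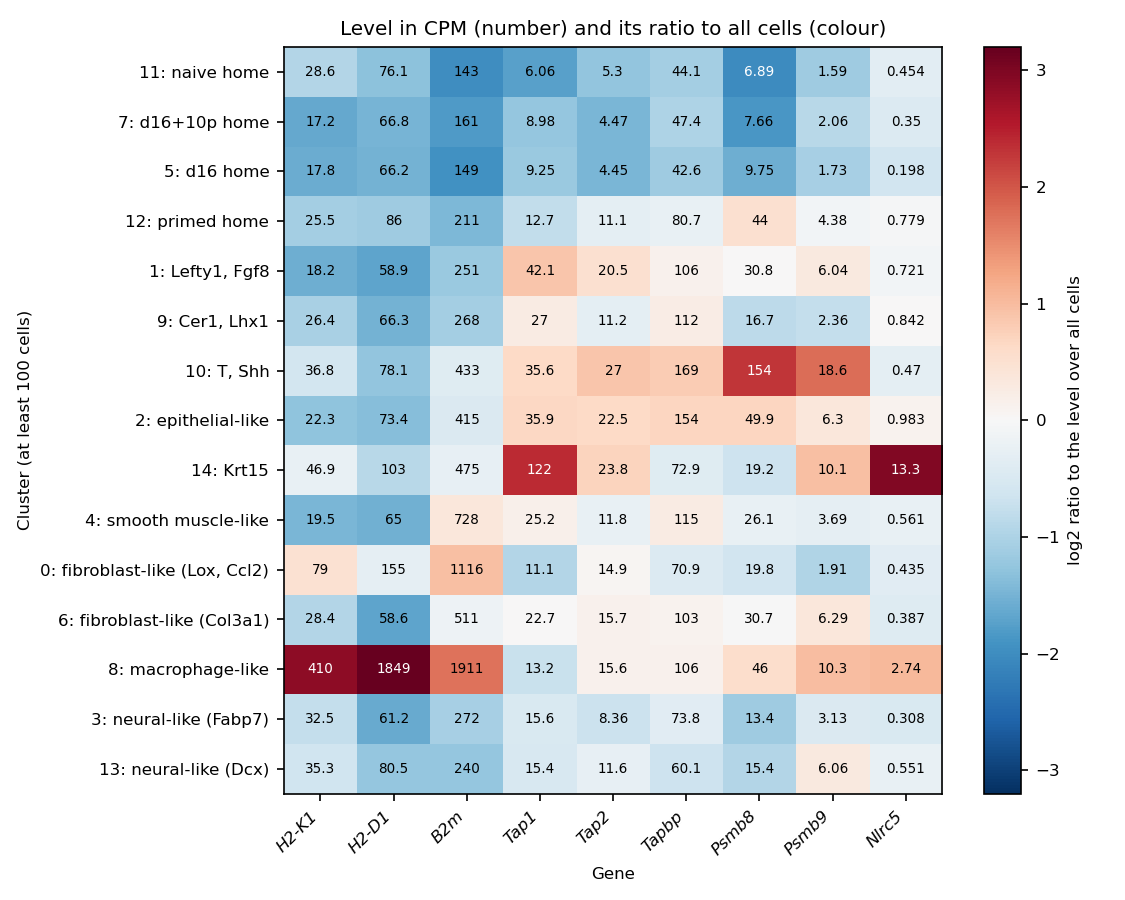
Level of each gene (columns) in the 15 clusters of at least 100 cells (rows), with the CPM as a number and the log2 ratio to all cells as colour. The heavy chains and B2m are highest in the macrophage-like cluster 8, Psmb8 and Psmb9 in cluster 10, and Tap1 and Nlrc5 in cluster 14, while the home clusters of naive, d16 and d16+10p cells at the top are low for B2m, Tap1 and Tapbp.

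Over whole tags, B2m was 211 CPM (204 to 218) in naive, 333 CPM (327 to 340.1) in primed, 776 CPM (772 to 780.4) in d8, 312 CPM (308 to 317) in d16 and 181 CPM (176 to 187) in d16+10p cells. The order was d8, primed, d16, naive and d16+10p, with no overlap of neighbouring intervals. For Psmb8 the 39.3 CPM of primed and 38.0 CPM of d8 cells had overlapping intervals, above 19.1 CPM in d16, 13.2 CPM in naive and 7.89 CPM in d16+10p cells. For H2-D1 the 107 CPM of primed and 104 CPM of naive cells were not separated either. In naive-tagged cells, 23 macrophage-like cells gave 32.0% of the H2-D1 reads, and in primed-tagged cells 47 gave 32.2%. At equal depth the share of cells with a B2m read was 48.0% (43.6 to 52.5) in the naive core, 58.8% (53.9 to 63.6) in the primed core, 46.5% (43.2 to 49.9) in the d16+10p core and 80.3% (79.5 to 81.2) in d8 without cluster 8, and at full depth 87.1%, 88.9%, 85.2% and 91.6%. No cluster could serve as one that should lack class I, so no background share is given.

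**Figure D5:**
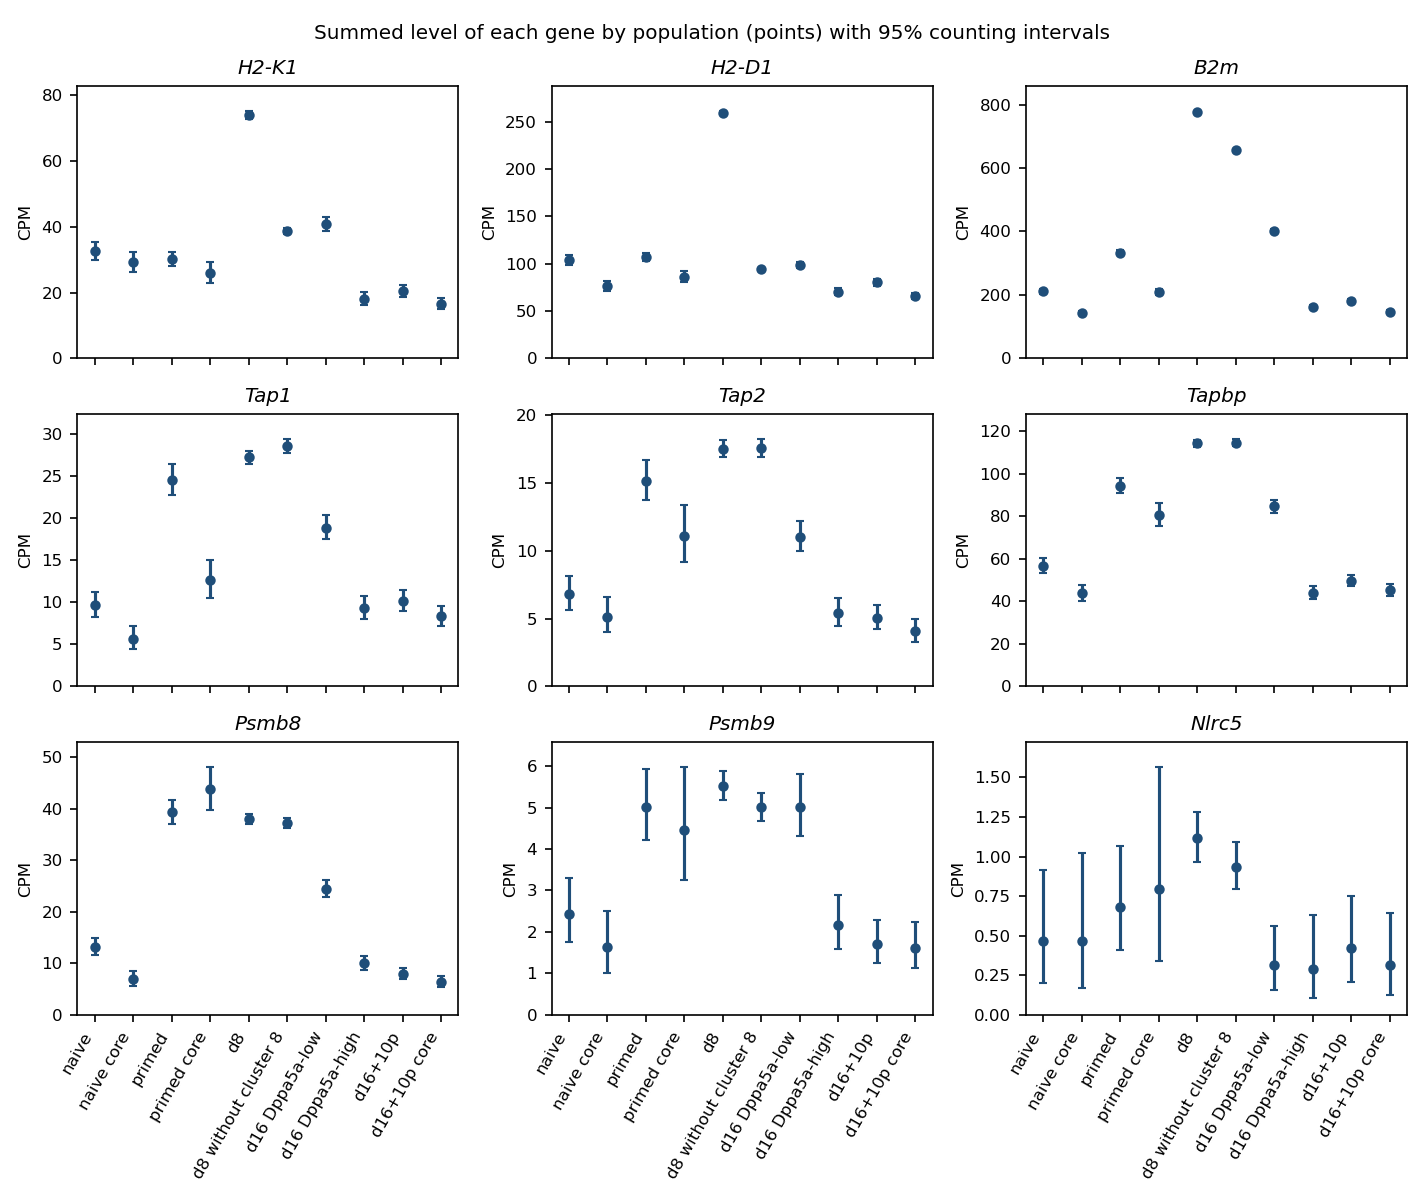
Summed level in CPM (vertical axes, from 0) of each gene in the tagged populations, the cores, d8 without the macrophage-like cluster 8 and the d16 cells split by Dppa5a, with points for the level and bars for exact 95% Poisson intervals. H2-K1 and H2-D1 drop from 74.1 and 259 CPM in d8 to 38.8 and 93.9 CPM without cluster 8, while B2m stays at 657 CPM.

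From d16 Dppa5a-low to d8 cells, both mixtures of cell kinds, H2-D1 was the only member with a 2-fold difference of 7 tested. It was at 259 against 98.5 CPM, a log2 ratio of 1.39 (1.35 to 1.45), where 2.84% of tested genes were higher and 8.96% lower. Without cluster 8 its log2 ratio was 0.48. The median of the 9 was 0.62, against 0.02 for all tested genes.

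Across 35 groups of at least 50 cells with the same tag and cluster, the pairs of members differed widely in how their log2(CPM + 1) went together. H2-K1 and H2-D1 had a Pearson r of 0.88, and 0.75 over the 34 groups without the macrophage-like one. With B2m they had 0.67 and 0.60, and 0.54 and 0.45 without that group, where B2m with Tap2 had 0.49. Tapbp and Psmb8 had an r of 0.84, Psmb8 and Psmb9 of 0.78, and Tap2 and Tapbp of 0.69. H2-D1 had -0.25 with Tap1 and 0.02 with Tapbp, and Nlrc5 at most 0.38 with any member. These groups share 1 library and many share a cluster, and H2-K1 and H2-D1 share sequence, so the values are descriptive. Of 15160 genes, the one nearest to the mean of the 9 was Tcirg1 (r 0.80), a subunit of the vacuolar proton pump, followed by Tmem140 (0.80), Rnf128 (0.78), Rnh1 (0.75) and Dusp3 (0.75), and the interferon regulatory factor Irf2 (0.71) was 9th.

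The rest of the proteasome separated in the same comparison of primed with naive cores. Of 5 genes of the immunoproteasome and its activators, Psmb10, the remaining inducible catalytic subunit, was at 105 against 25.6 CPM (log2 ratio 1.99) and Psme2, a subunit of the PA28 cap, at 271 against 86.4 CPM (1.64), both at least 2-fold higher in primed cells, and Psme1, its partner, at 170 against 98.6 CPM (0.78). Of all tested genes 4.94% were higher and 7.67% lower in that comparison. In Dppa5a-high d16 cells against the same primed core 3 of the 5 were at least 2-fold lower, where 3.63% of all tested genes were. These were Psmb10 at 16.6 CPM (-2.59), Psme2 at 66.6 CPM (-2.01) and Psme1 at 81.5 CPM (-1.05). The constitutive counterparts Psmb5, Psmb6 and Psmb7 had 0 of 3 past 2-fold in all 7 comparisons. In primed against naive cores their log2 ratios were 0.16, -0.05 and 0.26.

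Of 10 genes of peptide loading and trimming, 1 was higher and 0 lower in primed against naive cores. The shares over all tested genes were 4.94% and 7.67%. The higher gene was Erap1, the aminopeptidase that trims peptides in the endoplasmic reticulum, at 28.2 against 8.12 CPM (1.68). It was lower in Dppa5a-high d16 cells, at 13.1 CPM (-1.05), and higher in Dppa5a-low cells, at 29.9 CPM (1.13). In cluster 10 Erap1 was at 110 CPM. Among 18 other class I heavy chains, H2-M5 was at 19.3 CPM in the naive core, 0.89 CPM in the primed core (-3.42), 12.2 CPM in Dppa5a-high d16 cells and 20.3 CPM in the d16+10p core, a direction opposite to that of Psmb8. Of the 6 tested in primed against naive cores, 0 were higher and 2 lower, beside 4.94% and 7.67% of all tested genes. The other lower gene beside H2-M5 was the Fc receptor gene Fcgrt, at 4.57 against 14.3 CPM (-1.46). In d8 against primed, 2 of 5 tested were higher, H2-T22 at 16.7 against 5.26 CPM (1.50) and H2-T10 at 41.5 against 16.0 CPM (1.32), and 2 lower, H2-Q6 at 4.74 against 12.5 CPM (-1.24) and H2-T23 at 22.7 against 51.5 CPM (-1.15), where 14.6% of all tested genes were higher and 8.58% lower. Also, H2-T10 had 102 CPM in fibroblast-like cluster 0.

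Of 16 transcription factors of class I genes, 0 were past 2-fold in 5 of the 7 comparisons, primed against naive cores among them. In Dppa5a-low against Dppa5a-high d16 cells 2 of 15 tested were higher, Irf2 (1.46) and Nfkb1 (1.02), and 1 lower, the NF-Y subunit gene Nfyb (-1.18), shares near or under those of all tested genes (16.6% and 11.2%). In d8 against primed cells 2 of 14 tested were higher, near the 14.6% of all tested genes, the NF-kB subunit gene Rela at 44.8 against 17.8 CPM (1.29) and Irf2 at 17.2 against 7.05 CPM (1.18). Irf1, the gene of an interferon-induced activator, was at 27.9 CPM in the primed core, 17.1 CPM in the naive core (0.67) and 90.8 CPM in cluster 10. Of 7 interferon receptor and kinase genes, 4 were higher in d8 against primed cells, where 14.6% of all tested genes were higher, among them the receptor chains Ifngr2 at 41.3 against 15.1 CPM (1.40) and Ifnar2 at 38.8 against 14.4 CPM (1.37), and none of 6 tested was past 2-fold between primed and naive cores.

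Interferon-stimulated genes differed in direction among themselves. Of 5 tested in primed against naive cores, Gbp2 at 30.2 against 6.48 CPM (2.06) and Isg15 at 13.6 against 3.12 CPM (1.82) were higher, and Bst2 at 9.13 against 35.1 CPM (-1.83) and Ifitm3 at 113 against 249.7 CPM (-1.13) were lower. The shares over all tested genes there were 4.94% higher and 7.67% lower. In Dppa5a-high d16 against primed cells Gbp2 at 6.02 CPM (-2.15) and Isg15 at 4.09 CPM (-1.52) were lower, 2 of 5 tested. Of all tested genes 3.63% were lower there and 9.4% higher. In the d16+10p core against the naive core 1 of 3 tested was past 2-fold, with 1.09% of all tested genes higher and 1.19% lower. It was Bst2, at 10.5 against 35.1 CPM (-1.65). In d8 against primed cells 4 of 7 tested were higher, against 14.6% of all tested genes, led by Rsad2 at 12.6 against 2.18 CPM (2.1). Rsad2 was at 32.8 CPM in the macrophage-like cells, 23.8 CPM in the epithelial-like cluster 2 and 10.3 CPM in d8 without cluster 8.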

How the data were processed

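Per the labels and the methods of the study, cells were tagged with streptavidin-borne oligonucleotides on antibodies to CD9 and CD63, captured with BD Rhapsody and amplified as cDNA. The authors deposited raw counts, which are reads summed over the transcripts of a symbol in each cell. The submitters' processing notes name cutadapt 2.10, Bowtie2 2.3.4.1, Seurat 2.3.4 and build mm10. Reads were mapped to Ensembl transcripts, no collapsing by molecular identifier is described, and the cells with the weakest tag contrast were removed by the authors as doublets before deposit. No doublet caller was run here. Tags were read from the start of the column names, and 0 columns were left out.

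No cell fell under 500 detected genes or over 20% mitochondrial reads, so all 17720 were kept. Clusters were made with Seurat 5.3.0 (2000 variable genes without the antigen presentation lists, 56 principal components, 50 neighbours, resolution 0.8) in R 4.3.3 and called by fixed markers or leading genes. They were rebuilt here and can differ from those of the study. Counts were summed per group, scaled to CPM and compared with a pseudocount of 1 CPM in Python 3.11.15. Exact intervals came from SciPy 1.17.1. The interval code was tested on simulated data. A home cluster had Pou5f1 at 25% or more of the highest cluster and a Pou5f1 read in at least 75% of its cells. Shares of cells with a read were taken after drawing 5000 reads from each cell, which excluded 1767 cells with fewer. With 1 sample per population, no test was possible and none was made. No barcode was shared, as there was 1 cDNA library.

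Named genes were the 9 members, at most 3 genes per related list and comparison by absolute log2 ratio, the marker genes, and the 10 genes most like the mean of the members. Levels of related genes in single clusters, and Psmb5, Psmb6, Psmb7, Irf1, H2-T23 and Psme1, were added after their values were seen. The members and lists were chosen with earlier results of these data known. Alternatives covered cell filters, deep cells, means over cells, thinning, TMM factors (edgeR 4.0.16), the pseudocount, the core, the resolution, the variable genes and the Dppa5a limit. Leaving out the macrophage-like cluster was added after seeing the data.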

Additional observations from a re-analysis of the deposited data

How the results depend on the processing

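No paired analysis was possible because each population was 1 tagged sample. Over 14 settings, 74 of 82 alternative medians of the 9 log2 ratios stayed within the counting interval of the median gene and 8 moved beyond it, and none of those 8 changed sign. With a pseudocount of 10 CPM the median was 0.48 in primed against naive cores, 0.58 in Dppa5a-low against Dppa5a-high d16 cells and 0.39 in d8 against Dppa5a-low d16 cells. With thinned cells it was 0.63 in primed against naive cores and 0.84 in d8 against Dppa5a-low d16 cells, where the mean over cells gave 0.85. With all cells of a tag in place of the core it was -1.03 in Dppa5a-high d16 against primed cells and 0.27 in d8 against primed cells. The median of Dppa5a-high d16 against d16+10p cells, 0.14, was -0.14 with all cells of the tag, within its interval.

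Of the 11 ratios of tested members past 2-fold, none changed sign, and 109 of their 124 alternatives stayed past it. Psmb8 ran from 1.51 to 2.76 in primed against naive cores and from -2.33 to -1.43 in Dppa5a-high d16 against primed cells, and B2m from 1.22 to 1.94 in d8 against primed cells. Tap1 was under 2-fold in 3 of 11 alternatives for primed against naive cores (0.53 to 1.26) and in 3 of 12 for d8 against primed cells (0.14 to 1.22), where the lowest value came with all primed-tagged cells. In Dppa5a-low against Dppa5a-high d16 cells H2-K1 was under 2-fold in 4 of 10 (0.86 to 1.18) and Psmb8 in 2 of 10 (0.78 to 1.50). Without the macrophage-like cluster H2-K1 and H2-D1 were under 2-fold in d8 against primed cells (0.56 and 0.12), as was H2-D1 in d8 against Dppa5a-low d16 cells (0.48). Other signs than the main one were found in 21 alternatives of ratios under 2-fold, 18 of them in the 2 comparisons of naive-type cells. Shares of cells with a read moved beyond their interval in 43 of 45 cases without thinning. Psmb9 and Nlrc5 lay under the limit of 10 CPM in every compared group and were therefore tested in none of the 7 comparisons. Depth also limits both genes in the smaller groups.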

Other observations

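MHC class II genes were low over all cells, at most 4.78 CPM (H2-Eb1). In the macrophage-like cells H2-Aa was at 0.16 CPM, H2-Ab1 at 1.40 CPM and Cd74 at 0.59 CPM. H2-DMa, the highest of the class II list there, was at 3.92 CPM. The class I heavy chains and B2m thus stood out in these cells without their class II counterparts. H2-Eb1 was the only class II gene with 10 CPM in a compared group, at 15.1 CPM in Dppa5a-high d16 cells, 9.85 CPM in the d16+10p core, 5.70 CPM in the naive core and 1.09 CPM in the primed core, and it was at 44.6 CPM in the Krt15 cluster 14, where H2-Ob was at 9.77 CPM. H2-Ab1 was at 66.1 CPM in cluster 15, 79 cells led by Hp and Fgg of which 65 were d16, and at most 8.33 CPM in the compared groups. Of the natural killer cell ligands, Raet1d was at 13.3 CPM in the primed core, 6.25 CPM in the naive core, 5.15 CPM in Dppa5a-high d16 cells and 2.91 CPM in the d16+10p core, and H60b at 11.3 CPM in the macrophage-like cells.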
